A study of Mus musculus with 12 samples.

Results

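Scavenger and lipoprotein receptors are the proteins through which macrophages take up modified lipoproteins, fatty acids and debris. Their transcripts, with those of partner proteins of the same uptake routes, were measured in the RAW264.7 line of mouse macrophages, which was transformed by Abelson leukaemia virus. The genes described are Cd36, Msr1, Scarb1, Marco, Olr1, Lpl, Lrp1, Vldlr, Cd5l and Cd68, taken by gene name from the array's annotation. All 10 were found, of 34797 gene names on the array, with 17 probes in all. Of these, 14 probes of 8 genes were bright enough to be tested, and Olr1 and Vldlr were not.

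The cells belonged to 4 groups of 3 arrays each, all kept for 24 h in medium with 0.5% fatty acid-free BSA. These were 0.2 mM palmitic acid with 200 nM recombinant FABP4, palmitic acid alone, FABP4 alone, and control cells that received neither. Palmitic acid is among the most common saturated fatty acids, and FABP4 (aP2) carries fatty acids inside adipocytes and macrophages and is also released by adipocytes. All arrays come from 1 transformed cell line at 1 dose and 1 time, and the labels leave unsaid whether a group's arrays hold separate cultures. The p-values therefore cover only the spread between these particular samples, which may be technical.

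Class A scavenger receptors (Msr1 and Marco), the class B receptors Cd36 and Scarb1, and the lectin-like receptor Olr1 bind oxidised or acetylated lipoproteins, and Cd36 also binds long-chain fatty acids. Lrp1 and Vldlr belong to a family of endocytic lipoprotein receptors, which takes up whole lipoprotein particles and then releases them in endosomes. Lipoprotein lipase, encoded by Lpl and secreted by macrophages, frees fatty acids from triglyceride-rich particles and can bridge them to Lrp1. Cd68 is a heavily glycosylated protein of late endosomes and lysosomes in macrophages, and Cd5l is a secreted scavenger-family protein known to be taken up through Cd36 into adipocytes.

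Each array held 59305 non-control spots, of which 42.8% to 46.7% were well above background and 0 were saturated. Levels are normalized intensities, that is the processed signal scaled so that all arrays share 1 value of the 75th percentile (273.4 units). Changes are log2 fold changes ± SE from limma over 17596 genes, and a gene was called when its p, adjusted over all of them by Benjamini-Hochberg, was under 0.05. Of the 2 slides used, the first carried all 3 control arrays with FABP4 array 1, and the second carried the other 8. No slide holds both palmitic acid and control, so slide and palmitic acid cannot be told apart in that comparison, other than through a fixed block for the slide, estimated from the FABP4 arrays, of which 1 lies on slide 1. Palmitic acid with FABP4 can be compared with FABP4 arrays 2 and 3 within slide 2, though these lay in different rows of it. The macrophage markers chosen, including Csf1r, Itgam and Lyz2, were well above background on all 12 arrays (10 of 10), whereas the adipocyte markers Adipoq, Lep and Plin1 and the fibroblast markers Col1a1, Pdgfra and Lum were so on none. Some markers of other cell types were also well above background on all 12 arrays. These were Col1a2 (fibroblast), Kdr and Vwf (endothelial), Zbtb46 and Itgax (dendritic cell), and Cd79a and Cd3e (lymphocyte).

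Cd68 was the only one of the 8 tested genes that rose with palmitic acid both with and without FABP4, by 1.27-fold and 1.20-fold, and Cd5l rose in the comparison without FABP4, over control levels of which 1 in 3 was well above background. The scavenger receptors Cd36, Msr1, Scarb1 and Marco, the lipase gene Lpl and the receptor gene Lrp1 were not called in any comparison. For palmitic acid against control 2 members rose (Cd5l among them, which entered the tests only through the groups other than control), 0 fell and 6 did not pass, where 4.88% of all genes tested rose, 3.73% fell and 8.61% were called in all. For palmitic acid with FABP4 against FABP4, 1 rose, 0 fell and 7 did not pass, where 2.86% of all genes rose, 0.943% fell and 3.81% were called. The median change of the 8 members was 0.08 without FABP4, against 0.00054 over all genes, and 0.11 with FABP4, against 0.05 over all genes.

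Cd68 had normalized intensities of 51501, 56332 and 53649 in palmitic acid, against 44131, 47651 and 42942 in control. It had 57648, 57256 and 53932 in palmitic acid with FABP4, against 44522, 43262 and 45044 in FABP4. Every array with palmitic acid was above every array without it. With palmitic acid alone the mean was 53827 ± 2420 against 44908 ± 2448 in control (SD, n = 3 each), a rise of 0.26 ± 0.06 or 1.20-fold (limma, adjusted p = 0.0196). With FABP4 present the mean was 56278 ± 2042 against 44276 ± 916 in FABP4 (SD, n = 3 each), a rise of 0.35 ± 0.06 or 1.27-fold (limma, adjusted p = 0.00906). The bulk RNA does not tell more Cd68 RNA per cell from more cells that carry it.

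**Figure D1:**
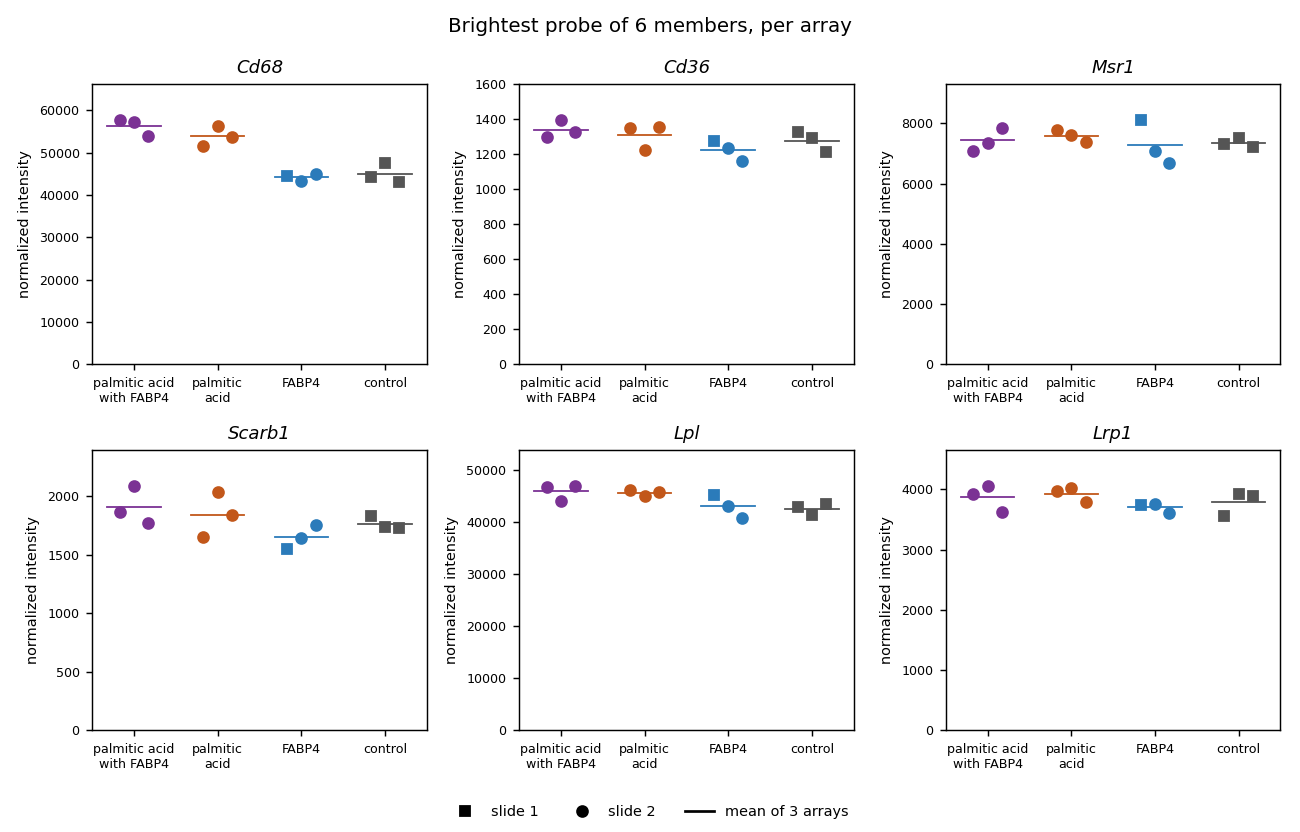
Normalized intensity (vertical axis, linear from 0, own scale per gene) of the brightest probe of Cd68, Cd36, Msr1, Scarb1, Lpl and Lrp1 on each of the 12 arrays, with the mean of each group as a line and the slide as the marker. All 6 Cd68 values with palmitic acid lie at 51501 or more and all 6 without it at 47651 or less, whereas the arrays with and without palmitic acid overlap for the other genes or lie close together.

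A second Cd68 probe, nearer to the transcript's 5′ end, moved the same way. It had 3862, 4235 and 3976 in palmitic acid, against 2869, 3009 and 3081 in control, and 3887, 3967 and 3538 in palmitic acid with FABP4, against 3088, 3015 and 3030 in FABP4. The changes were 0.43 ± 0.06 without FABP4 and 0.32 ± 0.06 with it (limma over all 23911 probes, adjusted p = 0.00423 and 0.0208). Again all 6 arrays with palmitic acid lay above all 6 without it. The brighter probe lies at chr11:69477775-69477834 (mm9, minus strand) and starts at base 1110 of its transcript in the file's annotation, and the second lies at chr11:69478979-69479038 and starts at base 443. The 60 bases of the second probe are shown because they carry the change on a stretch of the transcript that the brighter probe does not cover.
Cd68 probe at base 443: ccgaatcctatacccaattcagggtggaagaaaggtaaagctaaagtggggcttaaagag

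The rise of Cd68 with FABP4 present was as large within slide 2, at 0.35 ± 0.06 (limma, adjusted p = 0.0470), and 0.35 ± 0.06 when the slide was a fixed block (adjusted p = 0.0212). The rise without FABP4 kept its size with that block but had a wider error and was not called (0.27 ± 0.10, adjusted p = 0.246). Its call also ended, at changes of 0.25, 0.23, 0.23 and 0.26, without control array 1, control array 3, palmitic acid array 2 or palmitic acid array 3 (adjusted p = 0.0713, 0.0751, 0.0745 and 0.0525). Within row 1 of slide 2, palmitic acid arrays 1 and 2 (51501 and 56332) lay above FABP4 arrays 2 and 3 (43262 and 45044). Osteoclast markers, which this cell line can express, moved with Cd68. Their summed level was 8073 to 8579 in palmitic acid with FABP4 and 7768 to 8266 in palmitic acid, against 6018 to 6057 in FABP4 and 5697 to 5941 in control. Of 8 markers 7 were tested, and in each of these comparisons 4 rose while the collagenase gene Mmp9 fell. Those that rose were the fusion gene Dcstamp (carried on the array as Tm7sf4), the proton pump subunit gene Atp6v0d2, Ctsk and Ocstamp. Fitting the slide as a fixed block ended most of these calls without FABP4. Atp6v0d2, Ctsk, Ocstamp and Mmp9 then had 0.68, 0.48, 0.18 and -0.49 (limma, adjusted p = 0.0861, 0.106, 0.428 and 0.342). Dcstamp was still called (0.61, adjusted p = 0.03555). With a random block for the slide, Dcstamp and Atp6v0d2 were called (0.68 and 0.61, limma, adjusted p = 0.00494 and 0.0373). Ctsk, Ocstamp and Mmp9 were not. With FABP4 present the calls held with the fixed block (adjusted p up to 0.0425). Within slide 2 alone Ctsk and Mmp9 were not called (limma, adjusted p = 0.0656 and 0.0734). The calls of Dcstamp and Atp6v0d2 held in both comparisons whichever array was left out. Those of Ctsk and Mmp9 ended in both without some arrays, and that of Ocstamp did so with FABP4 present (adjusted p up to 0.108, 0.0951 and 0.0593). Of the 10 macrophage markers, the integrin gene Itgam fell without FABP4 (-0.34 ± 0.06, adjusted p = 0.0104) and the growth factor receptor gene Csf1r rose with FABP4 present (0.26 ± 0.05, adjusted p = 0.0208). With the slide as a block these were -0.15 (adjusted p = 0.462) and 0.28 (adjusted p = 0.0254). The part of these markers in the Cd68 result was not tested, and Calcr, a marker of mature osteoclasts, was above background on no array.

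Among class A receptors, Msr1 was expressed far above background and showed no called change. Its brighter probe had 7768, 7607 and 7373 in palmitic acid, against 7298, 7511 and 7199 in control. It had 7084, 7361 and 7854 in palmitic acid with FABP4, against 8101, 7084 and 6683 in FABP4. The groups overlapped in both comparisons, and the changes were 0.05 (95% confidence interval -0.11 to 0.20) and 0.03 (-0.13 to 0.19). A fixed slide block moved the Msr1 value without FABP4 to 0.28 ± 0.09, above that interval but not called (limma, adjusted p = 0.183). Cd68 had 0.27 ± 0.10 in that same fit, also not called. For Msr1 a random slide block gave 0.15 ± 0.09 (adjusted p = 0.5485). With FABP4 present the fixed block gave 0.11 ± 0.06 (adjusted p = 0.309). A second probe gave -0.07 and -0.15 (limma, unadjusted p = 0.301 and 0.0462, adjusted p = 0.532 and 0.247), the opposite sign, and neither probe was called. The probe shown lies at chr8:40709296-40709355 (mm9, minus strand, from base 624), and the second lies at chr8:40689158-40689217, from base 3231 of the transcript. The sequence of the probe at base 624 is printed as that of a receptor with a bright signal and no called change.
Msr1 probe at base 624: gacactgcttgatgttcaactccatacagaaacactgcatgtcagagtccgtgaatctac

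Marco, the other class A receptor among the members, lay near the background. Its single probe had 58.3, 56.9 and 52.8 in palmitic acid, against 29.9, 39.4 and 49.4 in control, of which the first was not well above background. It had 49.1, 64.3 and 53.4 in palmitic acid with FABP4, against 55.9, 55.0 and 52.2 in FABP4. The control arrays had the lowest mean of the 4 groups and the widest spread. They did not overlap with palmitic acid, but the highest of them was above the lowest of palmitic acid with FABP4. The difference of 0.53 ± 0.16 between palmitic acid and control was not called (limma, adjusted p = 0.0644), and with FABP4 present it was 0.02 ± 0.16 (adjusted p = 0.948). Without control array 3 the first value was 0.71 and passed (adjusted p = 0.0265), and with no scaling between arrays it was 0.70 and passed as well (adjusted p = 0.0272). Without control array 1 it was 0.34 (adjusted p = 0.161), and after normexp background correction 0.09 (adjusted p = 0.467). Marco entered the tests only through groups other than control, in which its mean was higher. The file places 20 bases of this probe at chr1:122371115-122371134 (mm9, minus strand).

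The class B receptor genes were not called. Cd36, the fatty acid translocase, had 1346, 1221 and 1352 in palmitic acid, against 1327, 1292 and 1209 in control, and these overlapped. It had 1296, 1392 and 1324 in palmitic acid with FABP4, against 1273, 1233 and 1162 in FABP4, and these did not overlap. The changes were 0.03 (95% confidence interval -0.10 to 0.17, adjusted p = 0.767) and 0.13 (-0.01 to 0.27, limma, adjusted p = 0.259). Its only probe lies at chr5:17288600-17288659 (mm9, minus strand). Of all genes tested, 26.3% had groups that did not overlap in the comparison with FABP4 present, and 3 of the 8 members did, namely Cd36, Scarb1 and Cd68, each with palmitic acid above, as in 19.3% of all genes.

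Scarb1, which encodes the receptor SR-BI for selective uptake of cholesterol esters from HDL, had 1866, 2084 and 1773 in palmitic acid with FABP4, against 1546, 1644 and 1756 in FABP4. It had 1652, 2037 and 1835 in palmitic acid, against 1826, 1733 and 1727 in control. The arrays with FABP4 did not overlap, by a narrow margin, and those without it did. The changes were 0.21 ± 0.09 with FABP4 (limma, adjusted p = 0.209) and 0.06 ± 0.09 without it (adjusted p = 0.707). A second probe had 174.7 to 320 over all arrays and gave 0.03 ± 0.20 and -0.26 ± 0.20. The probes lie at chr5:125757483-125757542 and chr5:125761540-125761599 (mm9, minus strand).

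Olr1, which encodes the oxidised LDL receptor LOX-1, was well above background on 3 of 12 arrays and was not tested. These were 1 array each of palmitic acid with FABP4 (32.4), palmitic acid (36.7) and FABP4 (25.4), and none of control. The other 9 arrays had 9.7 to 31.5 and were not well above background by the scanner's flag. Its probe lies at chr6:129435316-129435375 (mm9, minus strand).

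**Figure D2:**
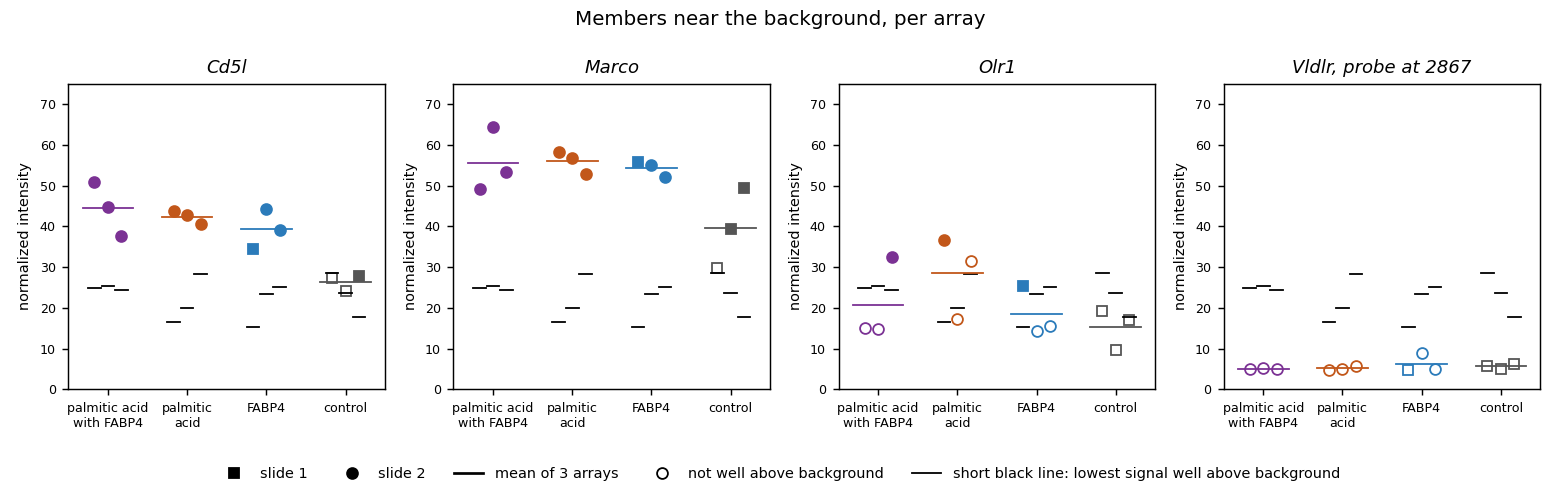
Normalized intensity (vertical axis, linear from 0, one scale) of the probes of Cd5l, Marco and Olr1 and of 1 Vldlr probe on each array, with group means as lines, open markers for spots not well above background, and a short black line for the lowest signal on that array that was well above background. Cd5l and Marco are lowest in control, where Cd5l was well above background on 1 of 3 arrays and Marco on 2, and the Vldlr probe was below the black line on every array.

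Of the endocytic lipoprotein receptor genes, Lrp1 was measured and Vldlr was not. Vldlr, the VLDL receptor, had 4.75 to 11.9 and 4.66 to 8.93 on its 2 probes over all arrays, and neither was well above background on any of 12. They lie at chr19:27324050-27324109 and chr19:27321104-27321163 (mm9, plus strand). Lrp1, the large endocytic receptor for remnant lipoproteins and protease complexes, had 3976, 4027 and 3785 in palmitic acid, against 3558, 3922 and 3896 in control. It had 3919, 4052 and 3630 in palmitic acid with FABP4, against 3738, 3754 and 3607 in FABP4. The groups overlapped in both, and the changes were 0.05 (95% confidence interval -0.08 to 0.18) and 0.06 (-0.07 to 0.19), with adjusted p = 0.604 and 0.560 in limma.

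The other 2 Lrp1 probes, on transcripts listed separately from the main one, had 48.6 to 76.5 and 30.0 to 46.0 over the arrays. Their changes lay between -0.04 and 0.14, with SE of 0.15 and 0.16, and none passed. The main probe lies at chr10:126975573-126975632 and the others at chr10:127026228-127026287 and chr10:127037088-127037147 (mm9, minus strand).

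Lpl had 46077, 44926 and 45741 in palmitic acid, against 42975, 41276 and 43412 in control. It had 46649, 44073 and 46888 in palmitic acid with FABP4, against 45171, 43076 and 40835 in FABP4. Palmitic acid did not overlap with control, whereas with FABP4 present the arrays overlapped. The changes were 0.10 ± 0.05 and 0.09 ± 0.05 (limma, adjusted p = 0.238 and 0.318), and the upper ends of the 95% confidence intervals were 0.21 and 0.20. The second probe gave 0.17 ± 0.06 and 0.12 ± 0.06 (adjusted p = 0.104 and 0.307), so neither probe was called. With quantile normalization the change of the brighter probe with FABP4 present was -0.02. With the slide as a fixed block its changes were larger, at 0.21 ± 0.08 without FABP4 and 0.13 ± 0.05 with it. Neither was called (limma, adjusted p = 0.264 and 0.192). The brighter probe lies at chr8:71430267-71430326 and the second at chr8:71425050-71425109 (mm9, plus strand, from base 1340), whose bases are given because it is the probe on which the change came closest to a call.
Lpl probe at base 1340: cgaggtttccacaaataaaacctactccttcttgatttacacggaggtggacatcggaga

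Cd5l, also called AIM, had 43.7, 42.7 and 40.5 in palmitic acid, against 27.4, 24.1 and 27.8 in control. It had 50.7, 44.7 and 37.7 in palmitic acid with FABP4, against 34.4, 44.3 and 39.1 in FABP4. Palmitic acid did not overlap with control, of which only the third array was well above background, and the arrays with FABP4 overlapped. The rise without FABP4 was 0.68 ± 0.12 or 1.60-fold (limma, adjusted p = 0.00829), a value set against a group mostly not well above background. Cd5l entered the tests through the other groups, in which it was higher, so its call adds no support of its own. With FABP4 present the difference was 0.17 ± 0.12 (adjusted p = 0.419). With a fixed block for the slide, the value without FABP4 was 0.41 ± 0.19 and not called (adjusted p = 0.367), and after normexp background correction with an offset of 50 it was 0.15 ± 0.06 (adjusted p = 0.166). Its probe lies at chr3:87174823-87174882 (mm9, plus strand).

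In control, where Cd5l and Marco were lowest, some other dim probes were low as well and others were not. Olr1 had its lowest mean there (15.2, against 18.4 to 28.5 in the other groups). The Vldlr probes had means of 7.97 and 5.635 in control, against 5.45 to 6.13 and 5.00 to 6.21 in the other groups. The dimmest Lrp1 probe had 38.8, against 39.3 to 41.1. The summed signal of 5 adipocyte markers, of which 4 were well above background on no array, was 44.8 to 59.0 in palmitic acid with FABP4, 44.1 to 62.0 in palmitic acid and 35.9 to 67.5 in FABP4, against 31.3 to 37.5 in control. The median processed signal over all spots was 15.5 to 16.1 on the control arrays, 16.3 on FABP4 array 1 and 16.9 to 21.7 on the 8 arrays of slide 2. The part of these in the Cd5l and Marco values was not tested. Without FABP4, 4 of the 8 members had palmitic acid arrays that did not overlap with control (Cd68, Cd5l, Marco and Lpl, all above), where 33.9% of all genes did not overlap and 17.5% lay above. Of these, Cd5l and Marco entered the tests only through groups other than control.

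**Figure D3:**
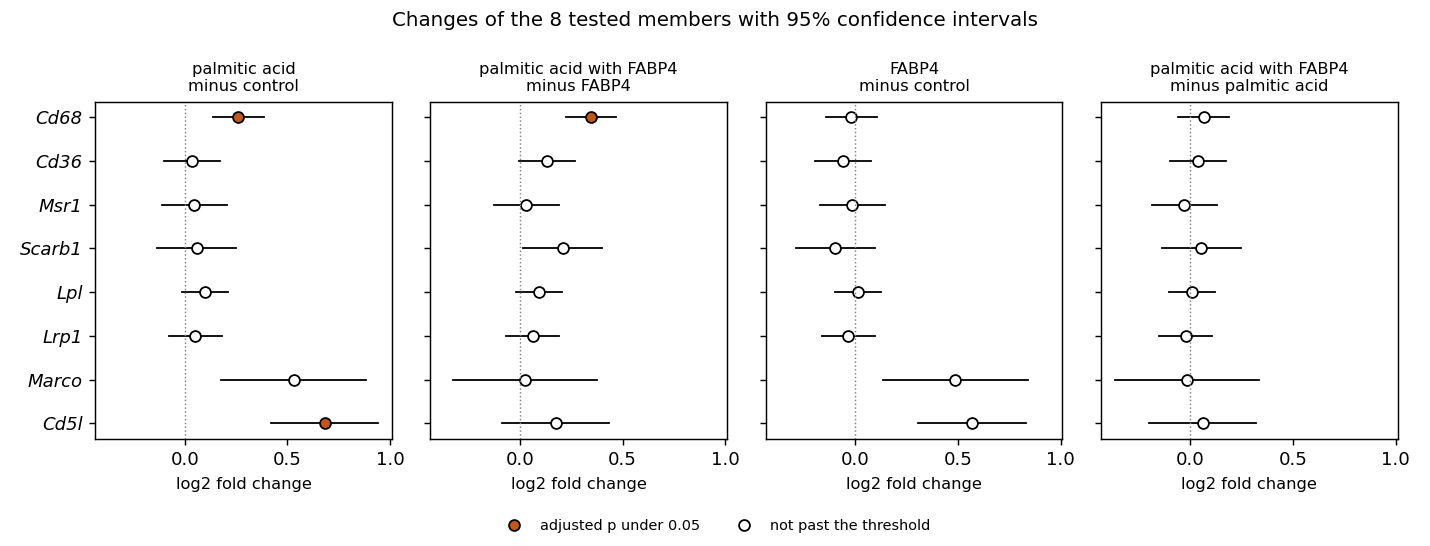
Log2 fold change (horizontal axis) with its 95% confidence interval for the 8 tested genes in 4 comparisons, with filled points for an adjusted p under 0.05. The filled points are Cd68 in both palmitic acid comparisons (0.26 and 0.35) and Cd5l in palmitic acid minus control (0.68), and the widest intervals belong to Marco, Cd5l and Scarb1.

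The plot of changes shows values above 0 for all 8 members in both palmitic acid comparisons. Most are close to 0, and under another scaling, with FABP4 present, Lpl, Lrp1, Marco and Msr1 were below 0 in at least 1 of 3 alternatives, at -0.07 or nearer to 0. In the same comparison the calls over all genes were 504 up and 166 down, and 376 up and 333 down with quantile normalization. Both palmitic acid comparisons have FABP4 and control arrays of their own and share none.

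**Figure D4:**
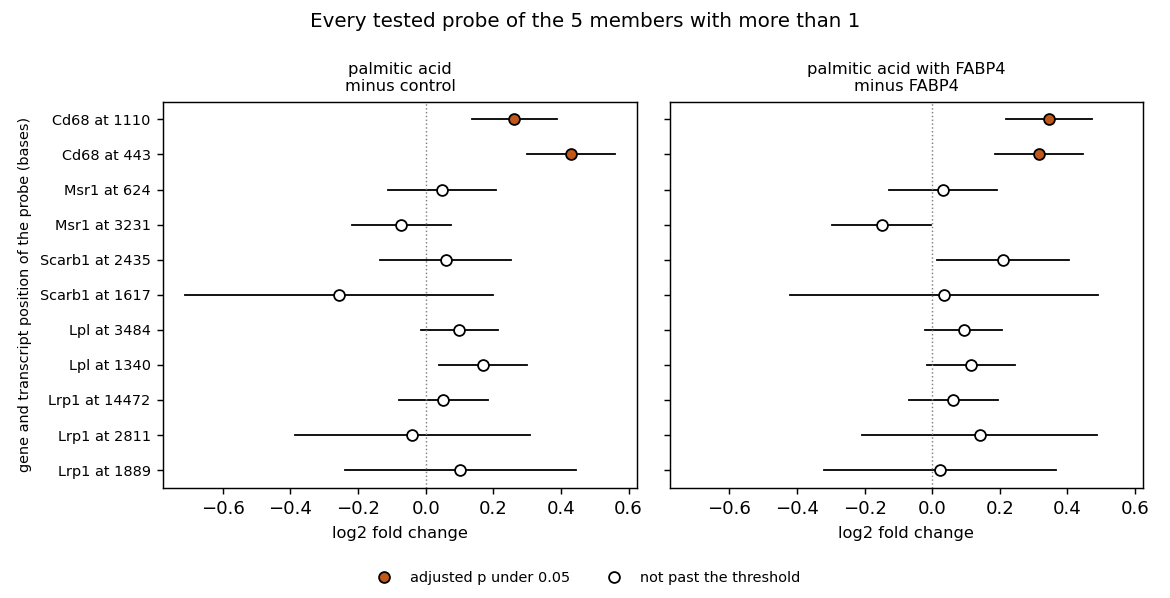
Log2 fold change (horizontal axis) with its 95% confidence interval for every tested probe of Cd68, Msr1, Scarb1, Lpl and Lrp1, each named by gene and the transcript base at which it starts, for palmitic acid minus control and palmitic acid with FABP4 minus FABP4. Both Cd68 probes are called in both comparisons (0.26 and 0.43, then 0.35 and 0.32), and the Msr1 probes lie on opposite sides of 0.

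No member was called in the comparisons for added FABP4. For FABP4 against control, 0 of 8 members passed in limma, where 0.017% of all genes were called, 2 members had an unadjusted p under 0.05 and 1273 genes (7.23%) had. These 2 were Cd5l, with 0.57 ± 0.12 (unadjusted p = 6.62e-04, adjusted p = 0.366), and Marco, with 0.49 ± 0.16 (unadjusted p = 0.0113, adjusted p = 0.566). Each entered the tests only through groups other than control, in which it was higher, so these values add no support of their own. Both had all FABP4 arrays above all control arrays, as 4.01% of all genes did, and 10.4% did not overlap in either direction. On slide 1, FABP4 array 1 had 34.4 for Cd5l, above the 3 control arrays there, and 55.9 for Marco, above them too. Within that slide the differences were 0.39 ± 0.11 and 0.53 ± 0.31 (limma, adjusted p = 0.428 and 0.588), where the lone FABP4 array is assumed to vary like the controls.

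The other 6 members had changes between -0.10 and 0.02 with FABP4 alone. Cd36 had -0.06 (95% confidence interval -0.20 to 0.07) and Cd68 had -0.02 (-0.14 to 0.10). With no scaling between arrays, where the median over all genes was 0.13, these 6 lay between 0.04 and 0.16, and the sign was that of the main scaling only for Lpl.

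The same held with palmitic acid present. For palmitic acid with FABP4 against palmitic acid, 0 of 8 members passed in limma and 0 had an unadjusted p under 0.05, where 0% of all genes were called and 1034 (5.88%) had such a p. The changes lay between -0.03 for Msr1 and 0.06 for Cd68, and the groups of all 8 members overlapped, where 14.5% of all genes did not overlap. Cd68 had 0.06 (95% confidence interval -0.06 to 0.19) and Cd36 had 0.03 (-0.10 to 0.17).

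Whether palmitic acid acted differently with FABP4 present was tested as an interaction, for which 0 of 8 members and 0% of all genes passed in limma, and 2 members and 1218 genes (6.92%) had an unadjusted p under 0.05. For Cd68 it was 0.08 (95% confidence interval -0.09 to 0.26, adjusted p = 0.800), so the rises with and without FABP4 were not shown to differ. For Cd5l it was -0.51 ± 0.17 (unadjusted p = 0.0119, adjusted p = 0.655) and for Marco -0.51 ± 0.22 (unadjusted p = 0.0465, adjusted p = 0.713). For both genes control has the lowest mean of the 4 groups, and both entered the tests only through the other groups.

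Genes of neighbouring functions were described from 5 lists. Of their 76 tested genes, limma called 9 for palmitic acid against control, where 8.61% of all genes were called. With FABP4 present it called 5, where 3.81% of all genes were called. Of 12 tested other scavenger receptors, 1 rose with palmitic acid against control and 0 fell. This was Scarb2, a lysosomal class B relative of Cd36 (0.31 ± 0.07, adjusted p = 0.0288). With FABP4 present 0 rose and 1 fell, the endocytic receptor gene Stab1 (-0.60 ± 0.11, adjusted p = 0.0189). The medians of this list were 0.11 and 0.05. The call of Scarb2 ended without any 1 of the 6 arrays compared, and that of Stab1 without FABP4 arrays 2 or 3 or arrays 1 or 3 of palmitic acid with FABP4 (adjusted p up to 0.101 and 0.0810).

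Among other endocytic lipoprotein receptors, their partners and sorting receptors, 2 genes that rose with palmitic acid are reported. Lrpap1, the chaperone of Lrp1, rose by 0.25 ± 0.06 without FABP4 (adjusted p = 0.0415) and had the same change with it, not called (adjusted p = 0.0623). Its second probe was called in both, at 0.30 ± 0.06 and 0.38 ± 0.06 (adjusted p = 0.0166 and 0.00935). Sort1, the sorting receptor sortilin, rose by 0.66 ± 0.18 without FABP4 (adjusted p = 0.0455), and had -0.01 when the slide was a fixed block.

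Of 16 tested genes of lipoprotein lipase handling and apolipoproteins, 0 were called without FABP4 (median 0.06), and 1 rose with it (median 0.10). This was Lipa, which encodes the acid lipase of lysosomes (0.22 ± 0.04, adjusted p = 0.0261), whose call ended at 0.15 with quantile normalization (adjusted p = 0.0870). Of 12 tested lysosomal membrane glycoproteins, 2 rose and 0 fell without FABP4 (median 0.08), and 1 rose and 0 fell with it (median 0.17). Gpnmb, a lysosomal and phagosomal glycoprotein, rose in both, by 0.52 ± 0.05 and 0.43 ± 0.05 (adjusted p = 5.94e-04 and 0.00170), and both calls held whichever array was left out. The other was Scarb2.

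Of 20 tested regulators of these genes, 2 rose and 2 fell without FABP4 (median -0.12), and 1 rose and 0 fell with it (median -0.02). Pparg, the nuclear receptor known to induce Cd36, rose by 0.26 ± 0.06 (adjusted p = 0.0326), and had 0.18 with quantile normalization (adjusted p = 0.153) and 0.10 after normexp (adjusted p = 0.262). Srebf2, the main regulator of cholesterol synthesis, rose by 0.48 ± 0.07 and 0.38 ± 0.07 (adjusted p = 0.00356 and 0.0129), while its second probe had 0.03 and 0.13. Nr1h3, which encodes LXR alpha, and Cebpa, a myeloid transcription factor, fell by 0.24 ± 0.06 and 0.29 ± 0.07 without FABP4 (adjusted p = 0.0451 and 0.0342), and a second Nr1h3 probe had -0.09. Of the 76 genes tested in these lists, limma called 0 for FABP4 against control, for palmitic acid with FABP4 against palmitic acid and for the interaction, where 0.017%, 0% and 0% of all genes were called. At an unadjusted p under 0.05 there were 6, 3 and 5 of the 76, and 7.23%, 5.88% and 6.92% of all genes.

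With the slide as a fixed block, every call named from these lists for palmitic acid without FABP4 ended, at adjusted p from 0.0558 for Gpnmb to 0.984 for Sort1. The changes of Scarb2, Lrpap1, Srebf2 and Pparg were then 0.45, 0.33, 0.47 and 0.28, against 0.31, 0.25, 0.48 and 0.26 without the block, with wider errors, and Gpnmb had 0.43. Nr1h3 and Cebpa had -0.12 and -0.16. With the slide as a random block, Gpnmb and Srebf2 were still called without FABP4 (0.48 and 0.48, limma, adjusted p = 0.0107 and 0.0408). The other calls named for that comparison ended there too. With FABP4 present the calls of Stab1, Lipa, Srebf2 and Gpnmb held with the fixed block (adjusted p = 0.0472, 0.0365, 0.0323 and 0.00502). Within slide 2 alone, Gpnmb was called (limma, adjusted p = 0.0269). Stab1, Lipa and Srebf2 were not (adjusted p = 0.106, 0.0636 and 0.08335). Without FABP4, the calls of Srebf2 and Gpnmb held whichever array was left out. That of Pparg ended without any 1 of the control arrays or without palmitic acid arrays 2 or 3, and that of Cebpa without control arrays 2 or 3, any 1 of the palmitic acid arrays or array 3 of palmitic acid with FABP4. The call of Lrpap1 held only without FABP4 arrays 1 or 2 or array 3 of palmitic acid with FABP4, that of Sort1 only without FABP4 arrays 1 or 2 or palmitic acid array 1, and that of Nr1h3 only without control array 2 or FABP4 array 1 (adjusted p up to 0.136, 0.1445 and 0.148). With FABP4 present, the call of Lipa ended without FABP4 arrays 2 or 3 or any 1 array of palmitic acid with FABP4, and that of Srebf2 without arrays 1 or 2 of palmitic acid with FABP4 (adjusted p up to 0.105 and 0.0643).

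The 2 genes whose pattern over the 12 arrays was most like that of each called member were found by the root mean square distance of centred log2 values among 17586 genes. For Cd68, whose own values had a root mean square of 0.16, they were Ninj1, at a distance of 0.05, and a transcript without a gene symbol at about the same distance. For Cd5l, with 0.32, they were En2 and Zic1, at 0.10 and 0.11. These are descriptions of likeness over 12 arrays that share their scaling and slides.

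The promoters of Cd68, called in both palmitic acid comparisons, and of Cd36, called in neither, are shown as the 250 bases before the annotated start (RefSeq, GRCm38.p6). Capitals mark a GAGGAA in Cd68, the core to which the macrophage factor PU.1 binds, 225 bases before the start, and in Cd36 a TGACCT, the reverse complement of AGGTCA, a core read by nuclear receptors such as PPAR gamma, 228 bases before the start. Both motifs and the E-box CACGTG, read by Mitf and Tfeb, were searched on both strands.
Cd68 promoter, chr11:69666171-69666420, minus strand: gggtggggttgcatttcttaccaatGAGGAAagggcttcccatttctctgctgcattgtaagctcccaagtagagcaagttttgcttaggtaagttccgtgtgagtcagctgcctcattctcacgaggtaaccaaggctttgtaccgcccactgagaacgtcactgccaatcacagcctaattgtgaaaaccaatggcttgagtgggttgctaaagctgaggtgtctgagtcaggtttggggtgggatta
Cd36 promoter, chr5:17835897-17836146, minus strand: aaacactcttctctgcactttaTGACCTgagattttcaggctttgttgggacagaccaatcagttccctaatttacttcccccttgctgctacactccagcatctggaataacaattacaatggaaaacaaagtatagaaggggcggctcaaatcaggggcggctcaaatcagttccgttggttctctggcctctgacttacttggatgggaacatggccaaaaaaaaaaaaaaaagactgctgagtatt

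Of the 10 members 7 have a promoter in the table, and not Lpl, Msr1 and Scarb1. GAGGAA was found before Cd68, Marco, Olr1, Cd5l and 1 of 2 Vldlr starts, and 23.3% of 32851 promoters of the same length hold it. AGGTCA was found before Cd36 and Olr1, with 14% of all promoters, and CACGTG before none of the 7, with 6.02%. A match describes these letters in this window and is no evidence of binding.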

How the data were processed

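Cy3-labelled RNA of each sample was hybridised to 1 Agilent mouse array of 1 colour, per the labels. Per the file headers, the authors used Agilent Feature Extraction 10.7.3.1 to quantify and flag spots after background subtraction, with probes placed on mm9. The authors' deposited values are this processed intensity, linear and unscaled between arrays, and their deposited value file matches it within 0.005. Exon and UTR positions of probes were not analysed here.

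Control and outlier spots were left out and spots of a probe averaged. The processed intensity was put on a log2 scale and each array's 75th percentile subtracted. Tested probes (23911 of 55681) were well above background throughout at least 1 group, the brightest represents its gene, and the others are given beside it. Group means over all 12 arrays were fitted by limma 3.58.1, two-sided with eBayes moderation, in R 4.3.3 with version 1.17.8 of data.table and jsonlite 2.0.0, and the fit was checked on simulated data. Figures used matplotlib 3.10.9 in Python 3.11.15. Precision is limited by the number of arrays, and the median SE over all genes was 0.08.

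The members, the 5 related lists and the marker lists were chosen with earlier results of these data known. The genes named are all members, the called genes of each list (at most the 4 smallest p-values per comparison), and the 2 genes nearest in pattern to each called member. Not every gene that this rule names is reported here. Alternatives were the scaling, background correction, dim-probe filter, choice of probe, deposited value table, slide and replicate number as blocks, 1 slide alone, only the groups compared, and each array left out. The further probes of members and the slide block for related genes were chosen after seeing the data. The other marker lists served as a check: of 5 fibroblast, 4 endothelial, 5 dendritic cell and 4 lymphocyte markers, 1, 2, 2 and 2 were well above background on all 12 arrays, and of those tested only Vwf was called (up in palmitic acid against control).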

Additional observations from a re-analysis of the deposited data

How the results depend on the processing

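No called change of a member altered its sign under the alternatives in which that change could be fitted. The count of 2 members called for palmitic acid against control was 0 with the slide as a fixed or as a random block, 1 with normexp and with only probes above background on all 12 arrays (Cd68), and 1 with no filter on dim probes and with only the arrays of the groups compared (Cd5l). Cd5l leaves the tested genes when only probes above background on all arrays enter, and the offset of normexp adds 50 units to a signal of that size, so both act on it by construction. The causes of the others were not tested. The count of 1 for palmitic acid with FABP4 against FABP4 was 0 with no scaling between arrays (Cd68 at 0.25, adjusted p = 0.244), with no filter on dim probes and with only the arrays of the groups compared. With 1 array left out the counts ranged from 1 to 2 and from 1 to 1, and from 0 to 0 for the 2 comparisons of FABP4 and the interaction. Without control array 1 or palmitic acid arrays 2 or 3 the first count was 1. Of the 37 member values not called, 1 passed under some setting (Marco, palmitic acid against control), and 29 changed sign under some setting, at sizes up to 0.265 and adjusted p of 0.248 or more.

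Same-numbered arrays did not pair, since their deviations correlated at -0.0775 to 0.168. With the replicate number as a block, the members' counts were 2 for palmitic acid against control and 1 with FABP4 present, and 0 in the other 3, while the calls over all genes were 1339 against 1515 and 408 against 670. Over all genes, the calls for palmitic acid against control moved by over 1.5 times with no scaling (3055, of which 2945 up), no dim filter (513), the slide as a fixed block (138) and as a random block (191). With FABP4 present they did so with no scaling (159), no dim filter (185), slide 2 alone (260), the replicate block and the groups compared only (94). For FABP4 against control the calls over all genes were 3 in the main fit. They were 103 with the slide as a fixed block and 59 without FABP4 array 1. For the interaction they were 0 in the main fit and 37 with that fixed block. Signals near background limit Cd5l, Marco, Olr1 and Vldlr.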
